A study of Homo sapiens with 16 samples.

Results

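The genes described here are 8 enzymes that modify collagen after translation or cross-link it outside the cell: the lysyl hydroxylases PLOD1, PLOD2 and PLOD3, the prolyl 4-hydroxylase subunits P4HA1, P4HA2 and P4HB, and the lysyl oxidases LOX and LOXL2. The choice rule names them by gene symbol and uses no measured value, but they were chosen with earlier results of these data known. They are 8 of the 63187 genes in the deposited table. All 8 passed the low-count filter and are among the 19530 genes tested. RNA-seq was done on 16 libraries made from the neuroblastoma cell line SK-N-BE(2) (human), in 4 groups of 4 libraries. The WT group is the line as labelled wild type. The FL group was transfected with full-length HIF-2α, the oxygen-regulated transcription factor encoded by EPAS1. The NCTAD and cIDR groups were transfected with the forms written ΔN-CTAD and Δc-IDR in the design, taken to be HIF-2α without those regions, with the residues not given in the sources used here. All groups were kept at 21% oxygen with 10% serum, so no library comes from cells held at low oxygen. The vector, the time after transfection and any empty-vector control are likewise not given, so transfection as such and HIF-2α cannot be told apart in a comparison with WT. The labels give each library of a group a replicate number, 1 to 4. This number is used here as the batch, with 1 library of each group in each batch. Nothing says that batches are separate cultures. The p-values below therefore measure the spread between these libraries, which may be technical.

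Collagen chains are hydroxylated in the endoplasmic reticulum before they fold into a triple helix. Prolyl 4-hydroxylase, a complex of catalytic α subunits (P4HA1 or P4HA2) and the β subunit P4HB, makes the hydroxyproline that keeps the helix stable at body temperature. Lysyl hydroxylases make hydroxylysine, and the copper enzymes LOX and LOXL2 then oxidise lysine and hydroxylysine side chains outside the cell, which starts cross-linking. The prolyl and lysyl hydroxylases need oxygen, iron and 2-oxoglutarate, as do the enzymes that mark HIF proteins for degradation, and PLOD2, P4HA1, P4HA2, LOX and LOXL2 are known hypoxia-responsive genes in other cells.

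The promoters of 7 of the 8 genes were taken from RefSeq (GRCh38.p14), and LOXL2 was left out of the search. Each was searched from 250 bases before to 50 bases after the start, on both strands. The search was for the HIF core motif, spelled ACGTG or GCGTG. Of 35116 promoters of this length, 21.4% held ACGTG, 36.5% held GCGTG and 48.4% held either. PLOD2 held 2 ACGTG and 1 GCGTG, P4HA1 held 1 ACGTG, PLOD1 held 2 GCGTG and P4HB held 1 GCGTG. LOX has 3 annotated starts in this table, and the outermost held 4 ACGTG, while the other 2, whose windows overlap, held 1 ACGTG and 1 GCGTG each. The PLOD3 and P4HA2 windows held neither motif. The P4HA2 window (chr5:132227042-132227341, minus strand) lies inside the annotated gene, whose 5′ end is at 132227853. The sequence at that end was not searched. A match is a description of the letters and not a binding site, and no protein binding was measured here. The 250 bases before the start are printed for PLOD2 (chr3:146161185-146161434, minus strand) and P4HA1 (chr10:73096867-73097116, minus strand), because these were the genes called in a comparison of constructs with WT. LOX (outermost start, chr5:122078260-122078509, minus strand) is shown for its 4 matches, and P4HB (chr17:81860536-81860785, minus strand) as the partner subunit of P4HA1. Each is written 5′ to 3′ along the gene, and capitals mark the motif as read on that strand, so that CACGT is ACGTG on the other strand.
PLOD2: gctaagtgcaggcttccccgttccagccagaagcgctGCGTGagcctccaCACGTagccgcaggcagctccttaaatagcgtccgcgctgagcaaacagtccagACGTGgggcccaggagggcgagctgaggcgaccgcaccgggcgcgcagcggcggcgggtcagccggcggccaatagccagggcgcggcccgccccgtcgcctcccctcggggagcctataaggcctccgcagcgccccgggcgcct
P4HA1: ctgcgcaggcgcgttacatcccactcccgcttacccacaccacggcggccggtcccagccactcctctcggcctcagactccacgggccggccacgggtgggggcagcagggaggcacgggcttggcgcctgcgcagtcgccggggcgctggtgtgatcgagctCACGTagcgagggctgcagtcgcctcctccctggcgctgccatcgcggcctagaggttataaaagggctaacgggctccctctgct
LOX: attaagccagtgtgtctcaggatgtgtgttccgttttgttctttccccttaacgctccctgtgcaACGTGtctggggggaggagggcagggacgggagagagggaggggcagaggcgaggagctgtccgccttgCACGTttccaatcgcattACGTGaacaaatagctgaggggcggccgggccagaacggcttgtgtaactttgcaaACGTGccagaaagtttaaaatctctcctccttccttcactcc
P4HB: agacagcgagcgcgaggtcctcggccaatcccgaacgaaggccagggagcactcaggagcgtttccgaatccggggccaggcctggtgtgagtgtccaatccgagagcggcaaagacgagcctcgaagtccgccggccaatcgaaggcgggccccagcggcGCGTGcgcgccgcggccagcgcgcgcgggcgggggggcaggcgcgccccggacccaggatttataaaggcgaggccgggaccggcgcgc
The PLOD2 matches began 213, 200 and 146 bases before the start, the P4HA1 match 86 bases before it and the P4HB match 89 bases before it. Those of LOX began 185, 116, 98 and 42 bases before the start.

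Libraries held between 38.6 M and 56.1 M counts (M, 1000000). EPAS1, the transfected gene, was at 13.0, 28.1, 17.3 and 14.3 counts per 1000000 counts (CPM, scaled by TMM, edgeR's normalisation factor) in WT batches 1 to 4 and between 1320 and 5852 CPM in the 12 transfected libraries, where endogenous and transfected reads are counted together. EPAS1 thus separates the WT libraries from the transfected ones as labelled. It does not check which construct a library holds, since its ranges overlap between FL, NCTAD and cIDR. Construct EPAS1 was not equal between groups or batches: within a batch it was 1.38 to 1.85 times as high in cIDR as in NCTAD, and against WT it was 77.8-fold in batch 2 and 315-fold to 408-fold in the other batches for cIDR. Its part in the differences between constructs was not tested. The 8 adrenergic neuroblastoma markers, all of them tested, summed to 4909 to 5342 CPM in batch 2 and 4279 to 5636 CPM in the other libraries. Much of the sum was MYCN, at 2594 to 3411 CPM, while TH was at 0.856 to 10.2 CPM. No reference level was used, so the sum does not test identity.

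Levels are compared between genes per transcript length, as TPM (transcripts per 1000000). P4HB was the most abundant with a median of 330 TPM over the 16 libraries (range 264 to 392). It also works alone as a protein disulfide isomerase. PLOD3 followed at 80.9 TPM (67.1 to 89.4), PLOD1 at 29.0 TPM (24.5 to 80.8), P4HA1 at 21.8 TPM (13.9 to 49.3) and P4HA2 at 5.43 TPM (3.56 to 16.8). LOX was at 0.981 TPM (0.285 to 2.02), LOXL2 at 0.815 TPM (0.325 to 4.96) and PLOD2 at 0.314 TPM (0.0696 to 1.02). Within a library, P4HB was above PLOD3, PLOD1 above P4HA1, P4HA1 above P4HA2 and P4HA2 above LOX in 16 of 16. PLOD3 was above PLOD1 in 14 of 16, with NCTAD and cIDR of batch 2 the exceptions, and LOX was above LOXL2 in 6 of 16, so these neighbours have no fixed order. LOXL2 was above PLOD2 in 15 of 16. PLOD2 rested on 8 to 152 counts per library, LOX on 47 to 365 and LOXL2 on 31 to 631, while every other member had at least 278 counts in each library.

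**Figure D1:**
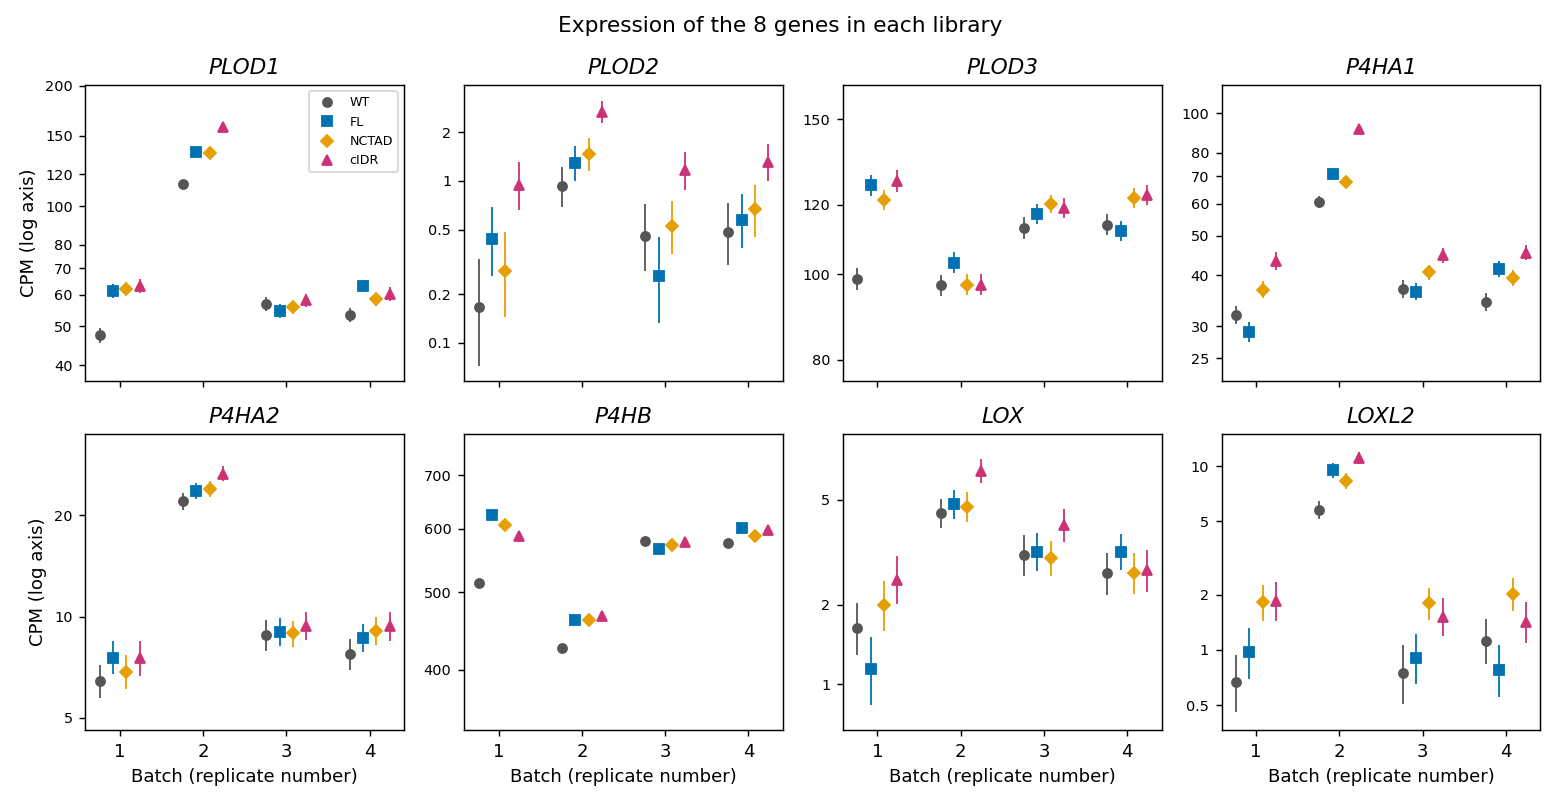
Level of each gene in CPM on a log axis (vertical) by batch (horizontal), with symbols and colours for the groups WT, FL, NCTAD and cIDR, 1 library each per batch, and bars for the 95% exact Poisson interval of the count, which covers counting error only. Batch 2 stands above the other batches for PLOD1, P4HA1, P4HA2, LOX and LOXL2 and below them for P4HB, and cIDR is the highest PLOD2 library in each batch.

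The question of whether expressing each HIF-2α form goes with a change in these enzymes was put to a model with group and batch, which compares libraries of the same batch. The threshold for a call was 0.05 on the Benjamini-Hochberg adjusted p over all genes tested (edgeR's quasi-likelihood test). The clearest result was in cIDR against WT, where PLOD2 rose 3.11-fold and P4HA1 rose 1.35-fold. These 2 of the 8 genes were called, against 95 of 19530 genes, or 0.486%, of the whole table. No member was called in FL against WT, where 20 genes or 0.102% of all were called, and 2 members had an unadjusted p under 0.05 (PLOD1 and P4HB), beside 5.11% of all genes. None was called in NCTAD against WT, where 89 genes or 0.456% of all were called, and 3 members had an unadjusted p under 0.05 (LOXL2, PLOD1 and P4HA1), beside 5.96% of all genes. In cIDR against WT 7 of 8 members had one, all but P4HB, beside 5.45% of all genes. The 8 genes had median log2 fold changes against WT of 0.12 (FL), 0.15 (NCTAD) and 0.34 (cIDR), beside 0.011, 0.016 and 0.0079 for all tested genes. The 3 comparisons share the same 4 WT libraries. The WT library of batch 1 was the lowest of all 16 for PLOD1, PLOD2, P4HA2 and LOXL2, and the lowest outside batch 2 for PLOD3 and P4HB.

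PLOD2 is the lysyl hydroxylase that acts on the telopeptides, the short ends of the collagen chain where cross-links form. In WT it was at 0.167, 0.931, 0.458 and 0.483 CPM in batches 1 to 4, from 8, 50, 19 and 22 counts. In cIDR it was at 0.947, 2.68, 1.16 and 1.31 CPM, from 35, 152, 56 and 58 counts. All 4 cIDR libraries lay above all 4 WT libraries, the lowest by a narrow margin over WT of batch 2. Within batches, cIDR was 5.67-, 2.87-, 2.53- and 2.71-fold WT, and the 5.67-fold value rests on the 8 counts of WT in batch 1. The log2 fold change was 1.64 ± 0.26 (SE, 4 libraries a group, edgeR's quasi-likelihood test, adjusted p = 0.00876). Without the batch term it was 1.57 ± 0.58 and not called (adjusted p = 1.00), and with batch 2 left out it was 1.67 with an adjusted p of 0.186. Leaving out WT of batch 2 also ended the call (1.61, adjusted p = 0.0584).

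In FL, PLOD2 was at 0.437, 1.29, 0.258 and 0.578 CPM, from 18, 66, 12 and 29 counts. In NCTAD it was at 0.279, 1.47, 0.525 and 0.667 CPM, from 12, 73, 29 and 31 counts. The FL libraries lay on both sides of WT, from 0.563-fold in batch 3 to 2.62-fold in batch 1, and NCTAD was above WT in all 4 batches, by 1.14- to 1.67-fold. The log2 fold change was 0.32 ± 0.27 in FL (adjusted p = 0.924) and 0.50 ± 0.27 in NCTAD (adjusted p = 0.902, both edgeR). Neither difference exceeded the spread between libraries, and the 95% intervals ran from -0.27 to 0.91 and from -0.079 to 1.08. The FL value moved with single libraries, to 0.15 without FL of batch 1, 0.16 without WT of batch 1 and 0.55 without FL of batch 3.

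The other lysyl hydroxylases differed less. PLOD1, which hydroxylates lysines in the helix, was at 47.5, 114, 56.8 and 53.4 CPM in WT. It was at 61.3, 136, 54.7 and 63.3 CPM in FL, at 62.1, 136, 56.0 and 58.5 CPM in NCTAD and at 63.2, 157, 58.1 and 60.3 CPM in cIDR. Against WT of the same batch, cIDR was higher in 4 of 4 batches (1.02- to 1.39-fold), while FL and NCTAD were lower than WT in batch 3 (0.962- and 0.985-fold). The log2 fold change in cIDR was 0.27 ± 0.070 (edgeR, adjusted p = 0.181), with 0.20 ± 0.070 in FL and 0.19 ± 0.070 in NCTAD. The cIDR difference was called by DESeq2 (0.26, adjusted p = 0.0289) and by edgeR without WT of batch 3 (0.34, adjusted p = 0.0244). PLOD3, which also adds sugars to hydroxylysine, was between 97.2 and 114 CPM in WT, 103 and 126 CPM in FL, 97.4 and 122 CPM in NCTAD and 97.4 and 127 CPM in cIDR. Its log2 fold changes were 0.11 ± 0.060, 0.12 ± 0.060 and 0.14 ± 0.060, and none was called.

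P4HA1, the main catalytic α subunit in most cells, was at 32.0, 60.5, 37.0 and 34.4 CPM in WT and at 43.4, 91.3, 44.8 and 45.4 CPM in cIDR. The groups overlapped as a whole because WT of batch 2 exceeded cIDR of the other batches. Within batches cIDR was higher in 4 of 4, by 1.36-, 1.51-, 1.21- and 1.32-fold. The log2 fold change was 0.43 ± 0.072 (edgeR, adjusted p = 0.0112). It was 0.46 without the batch term (adjusted p = 1.00), 0.37 with batch 2 left out (adjusted p = 0.251) and 0.34 in limma on log2(TPM + 1) (adjusted p = 0.449), and was not called in any of these. The call also ended without WT of batch 2 (adjusted p = 0.0882), WT of batch 4 (0.0716), cIDR of batch 1 (0.0713) or cIDR of batch 2 (0.0930). In NCTAD, P4HA1 was at 36.9, 67.9, 40.6 and 39.4 CPM, 1.10- to 1.15-fold WT in all 4 batches, with a log2 fold change of 0.18 ± 0.073 (adjusted p = 0.729). In FL it was at 29.1, 71.0, 36.5 and 41.4 CPM, lower than WT in batches 1 and 3 and higher in batches 2 and 4 (0.09 ± 0.073).

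P4HA2, the second α subunit, was at 6.43, 22.0, 8.78 and 7.73 CPM in WT and at 7.52, 26.7, 9.38 and 9.35 CPM in cIDR. cIDR was above WT in 4 of 4 batches (1.07- to 1.21-fold), a log2 difference of 0.22 ± 0.063 (edgeR, adjusted p = 0.296). FL and NCTAD had log2 fold changes of 0.13 ± 0.063 and 0.12 ± 0.062 and were above WT in every batch by at most 1.17-fold. P4HB was between 425 and 579 CPM in WT and between 467 and 598 CPM in cIDR. Its log2 fold changes were 0.11 ± 0.049 in FL, 0.091 ± 0.049 in NCTAD and 0.094 ± 0.049 in cIDR, and in batch 3 all 3 constructs were slightly below WT. The 95% interval of the cIDR difference, -0.012 to 0.20, excludes a rise as large as that measured for P4HA1.

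LOXL2, a lysyl oxidase that acts on matrix collagens including type IV, was at 0.668, 5.77, 0.748 and 1.12 CPM in WT, from 32, 310, 31 and 51 counts. In NCTAD it was at 1.81, 8.32, 1.79 and 2.02 CPM, from 78, 412, 99 and 94 counts. In cIDR it was at 1.84, 11.1, 1.51 and 1.42 CPM, from 68, 631, 73 and 63 counts. Both groups were above WT in 4 of 4 batches, by 2.71-, 1.44-, 2.40- and 1.81-fold in NCTAD and by 2.76-, 1.92-, 2.03- and 1.27-fold in cIDR. The log2 fold change was 0.99 ± 0.22 in NCTAD (adjusted p = 0.0809) and 0.92 ± 0.22 in cIDR (adjusted p = 0.119), and edgeR called neither. DESeq2 called both (adjusted p = 0.00569 and 0.0186), as did edgeR with no low-count filter (0.0109 and 0.0225). The NCTAD difference was also called without NCTAD of batch 2, at 1.23 (adjusted p = 0.0140), and in a fit of only the 8 libraries, at 0.94 (adjusted p = 0.0482). In FL, LOXL2 was at 0.971, 9.50, 0.903 and 0.777 CPM, below WT in batch 4 (0.694-fold) and above it in the other 3 batches. The FL difference was 0.31 ± 0.22 on the log2 scale, and -0.00092 without FL of batch 2.

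LOX, the founding lysyl oxidase, was at 1.63, 4.45, 3.09 and 2.63 CPM in WT and at 2.49, 6.43, 4.00 and 2.71 CPM in cIDR. Within batches cIDR was 1.53-, 1.44-, 1.30- and 1.03-fold WT, and the log2 fold change was 0.40 ± 0.16 (edgeR, adjusted p = 0.823). In FL it was at 1.14, 4.82, 3.18 and 3.19 CPM and in NCTAD at 2.00, 4.70, 3.00 and 2.65 CPM. The log2 fold changes were 0.028 ± 0.16 and 0.082 ± 0.16, within their error of 0, and their sign turned under several settings. Neither FL nor NCTAD differed from WT in LOX beyond the spread between libraries, with 95% intervals of -0.32 to 0.38 and -0.27 to 0.43.

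**Figure D2:**
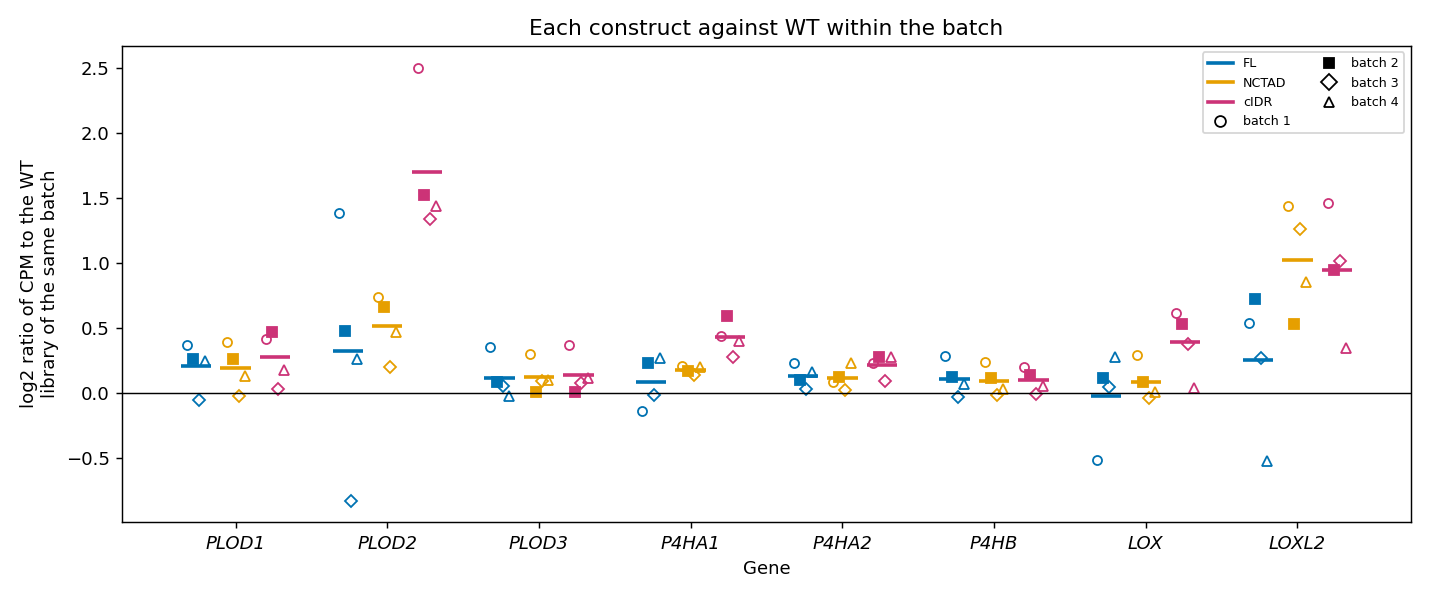
The log2 ratio of CPM in each construct to the WT library of the same batch (vertical) for each gene (horizontal), with colours for the constructs, symbols for the batches (batch 2 filled) and a line at the mean of the 4 batches. PLOD2 and P4HA1 in cIDR, and LOXL2 in NCTAD and cIDR, lie above 0 in all 4 batches, and the FL points for PLOD2, LOX and LOXL2 lie on both sides of 0.

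Constructs were then compared with each other, to ask whether the shortened forms differ from the full-length protein. No member was called. Of all genes, 0 of 19530, or 0%, were called in NCTAD against FL (721 had an unadjusted p under 0.05, and DESeq2 called 12), 6 genes or 0.0307% in cIDR against FL, and 1 gene or 0.00512% in cIDR against NCTAD. cIDR exceeded FL in PLOD2 in 4 of 4 batches, by 2.07- to 4.50-fold, with a log2 difference of 1.32 ± 0.26 (edgeR, adjusted p = 0.182). It exceeded NCTAD, too, in 4 of 4 batches, by 1.82- to 3.40-fold (1.14 ± 0.25, adjusted p = 0.606). For P4HA1 the log2 difference of cIDR was 0.34 ± 0.072 from FL (adjusted p = 0.301) and 0.25 ± 0.072 from NCTAD, with cIDR again above in 4 of 4 batches each. DESeq2 and edgeR with no low-count filter called PLOD2 and P4HA1 in cIDR against FL, DESeq2 at adjusted p of 0.00799 and 0.0107. EPAS1 was itself 1.09- to 2.41-fold as high in cIDR as in FL within batches.

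LOXL2 was 0.68 ± 0.22 higher on the log2 scale in NCTAD than in FL (edgeR, adjusted p = 0.996), above FL in 3 of 4 batches and 0.876-fold FL in batch 2. In cIDR it was 0.61 ± 0.22 above FL, in 4 of 4 batches. LOX in cIDR was 0.37 ± 0.16 above FL, and below it in batch 4 (0.850-fold). All other differences between constructs had an unadjusted p of at least 0.05, with log2 differences between -0.07 and 0.32.

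**Figure D3:**
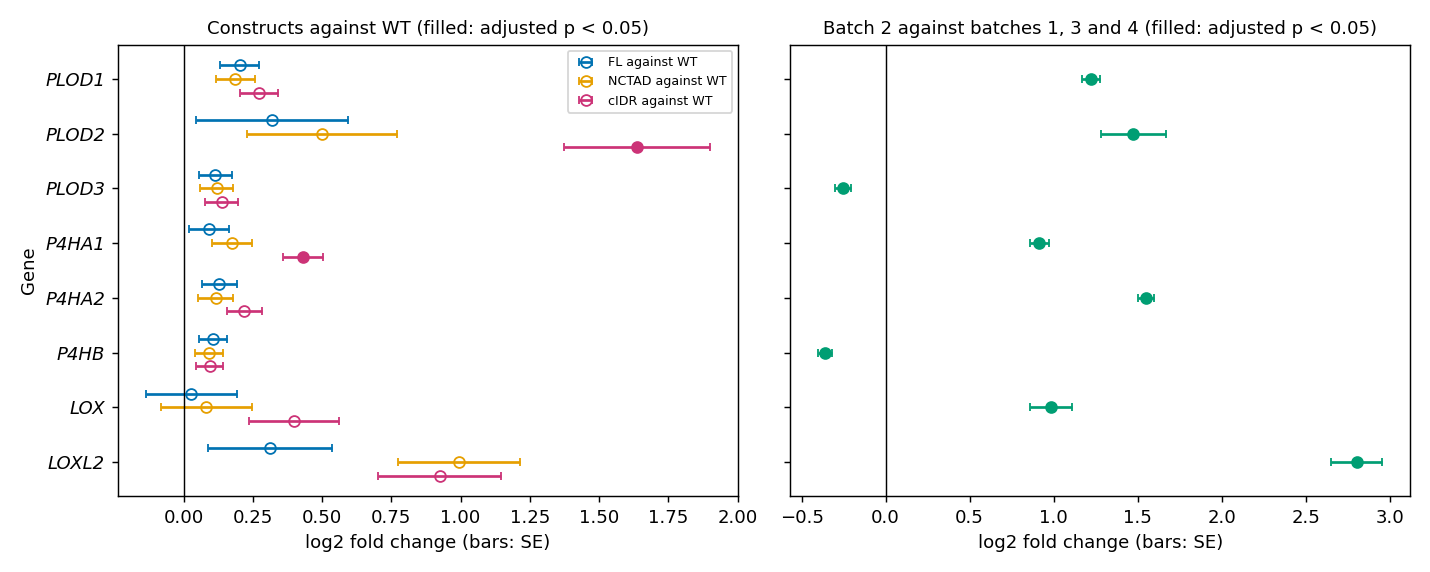
The log2 fold change of each gene with its SE (horizontal) for each construct against WT (left) and for batch 2 against batches 1, 3 and 4 (right), from the model with group and batch. Filled points have an adjusted p under 0.05: PLOD2 and P4HA1 in cIDR, and all 8 genes in batch 2, with PLOD3 and P4HB below 0.

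Batch 2 stood apart in these genes, and its difference from the other batches was larger in size than any difference from WT for 7 of the 8, with PLOD2 the exception. Batch 2 was compared with batches 1, 3 and 4 across the 4 groups. It is 1 batch, singled out because earlier results of these data showed it to stand apart, so the test covers the spread between libraries and not between batches. All 8 genes were called, 6 higher and 2 lower, but so were 10521 genes or 53.9% of all tested (27.7% higher). The count of calls is read against that broad shift. At an absolute log2 fold change of at least 1 as well, 4 of the 8 members were called and 1670 of 19530 genes. The signed median over the 8 genes was 1.10 on the log2 scale, beside 0.035 over all tested genes, which went both ways.

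LOXL2 had the widest gap, at 5.77, 9.50, 8.32 and 11.1 CPM in WT, FL, NCTAD and cIDR of batch 2. The other 12 libraries were between 0.668 and 2.02 CPM (1.30 ± 0.49, SD, n = 12), and the fitted difference was 6.98-fold (log2 2.80 ± 0.15, SE). P4HA2 was at 22.0, 23.6, 24.0 and 26.7 CPM in batch 2 and between 6.43 and 9.38 CPM elsewhere (8.26 ± 1.01, SD, n = 12), a 2.93-fold difference (log2 1.55 ± 0.046). PLOD1 was at 114 to 157 CPM in batch 2 against 47.5 to 63.3 CPM elsewhere (2.34-fold, log2 1.22 ± 0.053). In each of these 3 genes every batch 2 library was above every other library, with no overlap. The share of all tested genes without overlap was not counted, for these genes or for those below.

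P4HA1 was at 60.5 to 91.3 CPM in batch 2 against 29.1 to 45.4 CPM elsewhere (1.89-fold, log2 0.92 ± 0.056). LOX was at 4.45 to 6.43 CPM against 1.14 to 4.00 CPM (1.98-fold, log2 0.99 ± 0.12), and neither gene overlapped. PLOD2 was at 0.931 to 2.68 CPM in batch 2 and at 0.167 to 1.31 CPM elsewhere. Its ranges overlapped, because cIDR of the other batches reached WT and FL of batch 2, yet batch 2 was the highest batch in each of the 4 groups (2.78-fold, log2 1.47 ± 0.19).

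P4HB and PLOD3, the most abundant members, went the other way. P4HB was at 425, 462, 461 and 467 CPM in batch 2 and at 513 to 624 CPM elsewhere (582 ± 27.3, SD, n = 12), with no overlap and a log2 difference of -0.36 ± 0.041. PLOD3 was at 97.2, 103, 97.4 and 97.4 CPM in batch 2 and at 98.9 to 127 CPM elsewhere, with a log2 difference of -0.25 ± 0.049. It overlapped through WT of batch 1. The α subunits of prolyl 4-hydroxylase and the shared β subunit thus differed in direction between batches. EPAS1 showed no called difference (log2 -0.45 ± 0.26, adjusted p = 0.165). In WT it was 28.1 CPM in batch 2 and 13.0 to 17.3 CPM in the other batches. In each construct the batch 2 library was at 0.393 to 0.712 of the mean of the other 3 libraries.

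Whether the constructs acted differently in batch 2 was tested with an interaction term, added after the data had been seen. Each batch 2 arm is 1 library, so the test is weak: 1, 6 and 3 of 19530 genes were called for FL, NCTAD and cIDR. No member was called (adjusted p of 1 for each). LOXL2 had differences of the log2 effects of 0.65 ± 0.39 in FL, with the smallest unadjusted p of the members at 0.120, and of -0.62 ± 0.38 in NCTAD. For PLOD2 in cIDR the difference of the log2 effects was -0.16 ± 0.62, an error too wide to show that the effects were alike.

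Other genes of the pathway were taken from lists that, like the members, were drawn up with earlier results known. Of 19 further genes of collagen maturation, 16 were tested. In cIDR against WT 1 of the 16 rose, LOXL3 (0.59 ± 0.093 on the log2 scale, edgeR, adjusted p = 0.00780), another lysyl oxidase. In NCTAD against WT 1 rose, SERPINH1 (0.32 ± 0.060, adjusted p = 0.0269), the collagen chaperone HSP47, and in FL none was called. In batch 2, 3 were higher and 7 lower, where 53.9% of all tested genes were called and 27.7% were higher, shares against which every list's batch 2 count is to be read. LOXL3 was at 21.2 ± 3.67 CPM in batch 2 (SD, n = 4) and 8.25 ± 1.49 CPM elsewhere (SD, n = 12). LOXL1 was at 5.34 ± 0.39 and 2.58 ± 0.417 CPM, and the third was ADAMTS2, a procollagen peptidase named after its values were seen (log2 1.42 ± 0.21). PCOLCE, which enhances procollagen processing, was lower by a log2 difference of -0.55 ± 0.063. The lysyl oxidases tested (LOX, LOXL1, LOXL2 and LOXL3) were thus all higher in batch 2. P4HA3 had at most 2 counts in any library and LOXL4 at most 14, and neither was tested.

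Of 15 collagen and elastin genes, the substrates of these enzymes, 11 were tested. None was called in a construct against WT, and in batch 2, 8 were higher and none lower. COL6A2 differed by a log2 value of 1.52 ± 0.076, COL1A1 by 1.31 ± 0.11 and COL18A1 by 1.17 ± 0.083. COL1A1 was low throughout, at 1.69 to 6.44 CPM, and COL1A2, its partner in type I collagen, had at most 4 counts in any library. Of 10 genes of oxidative folding in the endoplasmic reticulum, the compartment of the hydroxylases, none was called against WT. In batch 2, 7 were lower and 2 higher. HSPA5, the chaperone BiP, was at 455 ± 25.4 CPM in batch 2 (SD, n = 4) and 851 ± 72.2 CPM elsewhere (SD, n = 12), and PDIA4 and CALR were lower by log2 differences of -0.61 ± 0.041 and -0.68 ± 0.049. P4HB, itself a protein disulfide isomerase, had the same direction as these. The 2 higher genes were ERO1A (0.38 ± 0.049) and PDIA5 (0.19 ± 0.057), named after their values were seen.

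The oxygen-sensing hydroxylases and a reference list of hypoxia genes are given for comparison. Of 5 HIF hydroxylases, EGLN3, itself a HIF target, rose in NCTAD (0.51 ± 0.093, adjusted p = 0.0196) and in cIDR (0.51 ± 0.093, adjusted p = 0.0195), and no other was called against WT (edgeR). In batch 2, EGLN3, HIF1AN and EGLN1 were higher by log2 differences of 0.76 ± 0.072, 0.20 ± 0.040 and 0.25 ± 0.076. Of 11 hypoxia genes, 1 rose in FL, 6 in NCTAD and 7 in cIDR against WT, and none fell. BHLHE40, a transcriptional repressor, rose in each, by 0.78 ± 0.078, 0.93 ± 0.077 and 1.11 ± 0.078 on the log2 scale. VEGFA, the angiogenic growth factor, rose by 1.05 ± 0.11 in NCTAD and by 0.89 ± 0.11 in cIDR, and PFKFB4, a regulator of glycolysis, by 0.67 ± 0.069 in cIDR. In batch 2, 10 of 11 were higher, with PDK1 (2.81 ± 0.085), PFKFB4 (2.24 ± 0.050) and BNIP3 (1.73 ± 0.058) having the smallest adjusted p. The list's median log2 difference was 1.5 in batch 2 and 0.64 in cIDR, and that of the 8 collagen enzymes was 1.10 and 0.34.

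**Figure D4:**
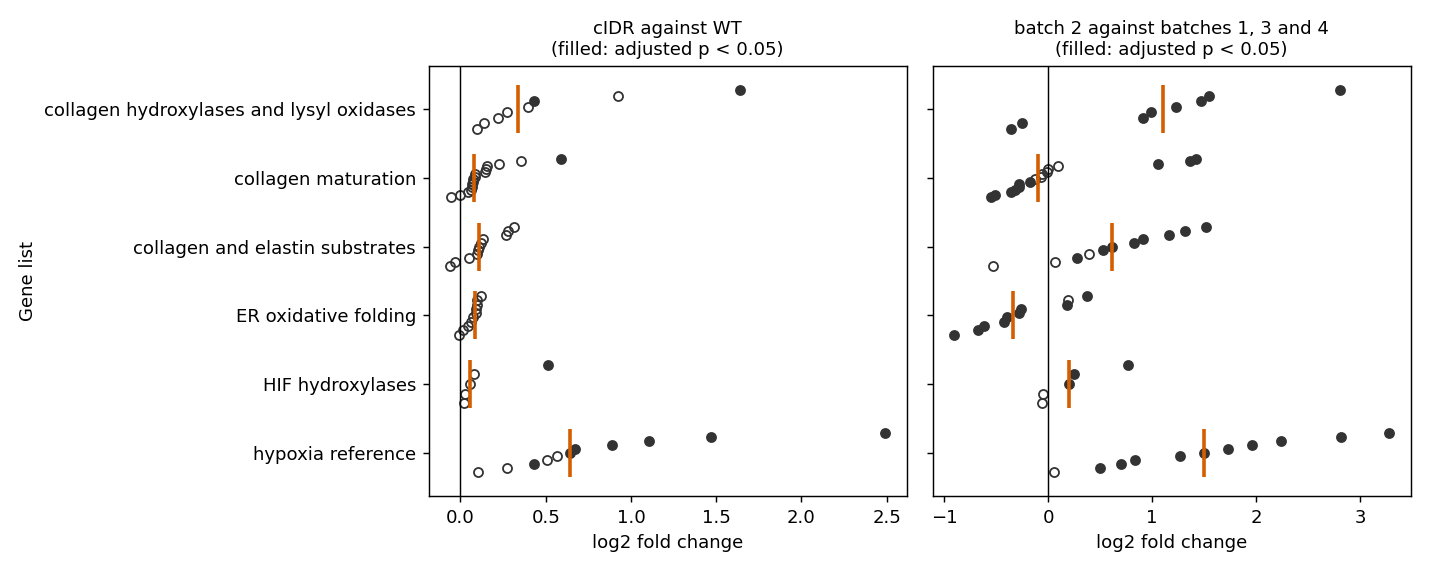
Log2 fold change (horizontal) of each tested gene of the 6 lists (vertical, 1 row of points per list) in cIDR against WT (left) and in batch 2 against batches 1, 3 and 4 (right); filled points have an adjusted p under 0.05 and the orange bar is the list's median. In batch 2 the collagen enzymes have a median of 1.10, with PLOD3 and P4HB below 0, and most genes of oxidative folding lie below 0.

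Markers of other cells were examined because fibroblasts express most of these enzymes strongly, and in bulk RNA fewer cells of a type and less RNA per cell cannot be told apart. The 6 fibroblast markers summed to 451 to 468 CPM in batch 2 and 426 to 494 CPM elsewhere, and FAP was at 0 in every library. The sum hides opposite differences between its genes, which are named after their values were seen. LUM was at 47.0 ± 1.47 CPM in batch 2 (SD, n = 4) and 17.3 ± 1.61 CPM elsewhere (SD, n = 12), DCN at 17.7 ± 0.678 and 9.70 ± 1.33 CPM, and PDGFRB at 127 ± 5.97 and 77.9 ± 15.4 CPM. THY1, the most abundant, was at 268 ± 6.55 and 359 ± 19.9 CPM, and all 4 differences were called. The 4 Schwann cell markers summed to 5.25 to 6.15 CPM in batch 2 and 3.29 to 5.63 CPM elsewhere, and the 3 endothelial markers to 0.410 to 1.06 and 0.0209 to 0.372 CPM, with at most 49 counts for any of them. Among the adrenergic markers, those higher in batch 2 included TH, DBH and HAND2, and GATA3 and ISL1 were lower, again named after their values were seen. TH and DBH, of the catecholamine pathway, rose in NCTAD and in cIDR against WT. The part of these differences in the batch 2 values of the collagen enzymes was not tested.

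The members moved together to different degrees. These Pearson correlations of log2 CPM over 16 libraries share batches, groups and library depth, and are descriptions. PLOD1 and P4HA2 had r = 0.966 and PLOD3 and P4HB had r = 0.904, while P4HA2 and P4HB had r = -0.871. After each batch's mean was subtracted, P4HA2 and P4HB had r = 0.657, so their opposite pattern was one between batches. The highest values after this step were those of PLOD1 and P4HB (r = 0.878, from -0.820 before it), P4HA1 and LOX (0.839), PLOD1 and P4HA2 (0.803) and PLOD2 and P4HA2 (0.793).

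Among 12374 genes compared over the 16 libraries, the gene nearest to each member was FAM162A for PLOD1 (r = 0.989), KDM7A-DT for PLOD2 (0.894), MCM2 for PLOD3 (0.947) and OXR1 for P4HA1 (0.978). It was MEIS3 for P4HA2 (0.993), CTSD for P4HB (0.985), NBR1 for LOX (0.955) and SFXN3 for LOXL2 (0.989). With batch means subtracted, PLOD2 was nearest to PFKP (0.910), PDE4C (0.889) and FGF11 (0.882), P4HA1 to PLEKHA2 (0.957) and P4HA2 to PFKFB4 (0.904). LOXL2 was nearest to SFXN3 (0.965) again and then to VEGFA (0.938), LOX to MXI1 (0.939), PLOD1 to OPRL1 (0.979), PLOD3 to TBCD (0.927) and P4HB to ILVBL (0.960).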

How the data were processed

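RNA was measured in 16 libraries, 4 each of WT, FL, NCTAD and cIDR. Estimated counts per gene and TPM values were deposited by the authors, and fastp, STAR, Salmon, featureCounts and GRCh38 are named without versions or order in the submitters' processing notes. Libraries were stranded and poly(A)-selected, with 250 ng of input RNA and 13 cycles of PCR per the labels' protocols, and whether counting used strand is not given in the sources used here. Columns were matched to samples through the library name in each sample's description. The column names differ from the labels: they call the line BE2c, WT control and FL wild type, and groups here follow the labels. Of the estimated counts, 15.5% were not whole and were rounded. No pair of libraries of the same group agreed within sampling noise (smallest chi-square per degree of freedom 7.24). Pairs across groups were not compared.

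Genes were filtered with filterByExpr by group, which left 19530, and tested with edgeR 4.0.16 (glmQLFTest, TMM) in R 4.3.3, with group and batch over all 16 libraries and Benjamini-Hochberg adjustment at 0.05. Each SE was taken as the log2 fold change over the root of its F statistic, and a prior count of 2 entered log2 CPM. The batch term is a replicate block, set by the replicate number of the labels. Deviations of same-numbered libraries from their group means correlated at 0.308 on average (0.0674 to 0.712). The mean of -0.0945 for other pairs follows largely from subtracting the group means and is not separate support. The biological coefficient of variation was 0.108 with the block and 0.245 without. In data simulated for cIDR against WT over 19219 genes, 50% of genes changed 1.5-fold were recovered. So were 64% of those changed 2-fold and 86% of those changed 3- or 4-fold. There were 12 false calls beside 143 changed genes called in the right direction. The simulated counts were drawn from batch means and the spread of the blocked model, with 50 genes per fold change. They do not show how the test fares where that model is wrong. DESeq2 1.42.0 and limma 3.58.1 gave alternatives. The precision is set by totals of 38.6 M to 56.1 M counts (M, 1000000) per library.

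The members, the lists and the choice of batch 2 were made with earlier results of these data known. Named genes were the 8 members, EPAS1, up to 3 called genes per list with the smallest adjusted p, and the nearest genes by correlation. Further list and marker genes were named after their values were seen, as stated with them, or for their low counts. In comparisons between constructs only members with an unadjusted p under 0.05 were named. Promoters came from RefSeq tables (GRCh38.p14). No promoter or location of LOXL2 was used here.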

Additional observations from a re-analysis of the deposited data

Results flagged for a closer look

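Within each group of 4 libraries, a library was singled out when its gap to the nearest other, divided by the whole range, exceeded Dixon's 95% critical value. This held in 16 of the 32 gene and group combinations, and the library was that of batch 2 in each. Chance flags about 1 in 20 groups, and the 4 batch 2 libraries share a batch, so these are not separate events. The rule was run on the members alone, so the share over all genes is not known. Of all tested genes, 53.9% were called in batch 2 against the other batches. For PLOD1 the batch 2 values were 114 CPM in WT, 136 CPM in FL, 136 CPM in NCTAD and 157 CPM in cIDR. For P4HA2 they were 22.0, 23.6, 24.0 and 26.7 CPM, and for LOXL2 5.77, 9.50, 8.32 and 11.1 CPM, in the same order. P4HA1 was singled out in NCTAD at 67.9 CPM and in cIDR at 91.3 CPM. PLOD3 in NCTAD at 97.4 CPM and P4HB in cIDR at 467 CPM were the ones where batch 2 was the low library. PLOD2 and LOX were not singled out in any group.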

How the results depend on the processing

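The main model has a replicate block. With no replicate block the calls fell to 2 genes in FL, 5 in NCTAD and 2 in cIDR against WT, 0 in cIDR against FL and 0 in cIDR against NCTAD, and members called in cIDR against WT from 2 to 0. With batch 2 left out, members called there were 0 and genes called 46, with 10 in cIDR against FL, 5 in NCTAD against FL and 0 in cIDR against NCTAD. Fits of only the 8 libraries gave 8 genes in FL against WT, 0 in cIDR against FL, 10 in cIDR against NCTAD and 1 member in NCTAD against WT.

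DESeq2 called 58, 168 and 156 genes in FL, NCTAD and cIDR against WT, 12 in NCTAD against FL, 46 in cIDR against FL and 21 in cIDR against NCTAD. Its members called were 4 in cIDR and 1 in NCTAD against WT and 2 in cIDR against FL. With no low-count filter these gene counts were 68, 149, 145, 18, 37 and 13, with 1 member in NCTAD against WT and 2 in cIDR against FL. With at least 10 counts in every library 1 member was called in cIDR against WT, because PLOD2 was then not tested. limma on log2(TPM + 1) and log2(TPM + 0.1) gave 36 and 47 genes in NCTAD and 49 and 47 in cIDR against WT, 0 and 0 in cIDR against FL and against NCTAD, and 1 member each in cIDR against WT. An absolute log2 fold change of at least 1 left 36 genes in NCTAD and 42 in cIDR against WT, 3 in cIDR against FL, 0 in cIDR against NCTAD and 1670 in batch 2, with 1 member in cIDR against WT and 4 in batch 2.

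Leaving out 1 library at a time gave 10 to 23 genes in FL, 43 to 83 in NCTAD and 49 to 72 in cIDR against WT, 0 to 5 in NCTAD against FL, 0 to 8 in cIDR against FL and 0 to 2 in cIDR against NCTAD. Members called were 0 to 3 in cIDR and 0 to 1 in NCTAD against WT.

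LOX in FL against WT turned to -0.0092 and -0.093 in the limma fits, -0.011 with the 8 libraries, -0.034 without batch 2, -0.00022 without WT replicate 2 and -0.12 without FL replicate 4 (range over left-out libraries up to 0.17). LOX in NCTAD against WT turned to -0.072 and -0.14 in the limma fits and -0.0052 without NCTAD replicate 1 (up to 0.12). LOXL2 in FL against WT turned to -0.00092 without FL replicate 2 (up to 0.47), and P4HA2 in NCTAD against WT to -0.0042 on log2(TPM + 0.1). None of these differences was called. Where not stated, the cause was not tested. Among the 39 member fold changes run under the alternatives (all against WT and in batch 2, and 7 between constructs), the others kept their sign. Counts of 8 to 73 for PLOD2 outside cIDR and of 31 to 99 for LOXL2 outside batch 2 limit what these libraries show.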
